A study of Mus musculus with 4 samples.

Results

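The matrix-expressing satellite cells described here were chosen cell by cell from droplet RNA-seq of mouse muscle stem cells. A barcode was taken when it held 1000 to 5000 genes and at most 8% mitochondrial UMIs (unique molecular identifiers, 1 per captured transcript), at least 1 UMI of Pax7 or Myf5, at least 1 UMI in 3 or more of Postn, Mgp, Gpc3, Gper1, Col1a2, Cited1, Dcx and Col6a3, and no UMI of Myog, Top2a, Cdh5, Sox10, Ptprc or Pdgfra. The rule found 1674 cells among 20850 barcodes within the limits on genes and mitochondrial UMIs, and among 27425 barcodes in all. Of the 15170 cells that passed the Pax7 or Myf5 step and carried none of the 6 excluded transcripts, called satellite cells here, the other 13496 held at most 2 of the 8 rule genes. Because the rule reads these transcripts, their levels in the chosen cells are a description and support nothing.

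The study compared satellite cells of dystrophin-deficient mice on a mild and a severe genetic background with those of matched wild-type strains. The libraries were B10 (C57/Bl10ScsSn, 15 weeks), mdx (C57BL/10ScSn-Dmdmdx, 11 weeks), DBA (DBA/2, 13 weeks) and D2-mdx (D2.B10-Dmdmdx, 14 weeks). The ages are those of the labels, and the study's methods give another range. Each strain gave 1 library from 2 pooled animals, so strain, age and library cannot be told apart, no test between strains was possible, and every interval covers counting error only. Hindlimb cells were sorted as positive for integrin alpha 7 and VCAM1 and negative for markers of white blood, endothelial and fibro-adipogenic cells, so the sort set which cells could appear.

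Satellite cells lie between the myofibre and its basement membrane, and Pax7 and Myf5 mark them in resting muscle. On injury they leave quiescence, divide, and either fuse or return to rest, and they also make part of the matrix around them. Collagens, their processing enzymes and matrix glycoproteins are made in greater amounts by fibro-adipogenic cells, tenocytes and pericytes, which share several of the rule genes with the cells described here.

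The rule genes fall into a few roles. Postn (periostin), Col1a2 (a type I collagen chain), Col6a3 (a type VI collagen chain), Mgp (matrix Gla protein) and Gpc3 (a cell surface proteoglycan) belong to the matrix or the cell surface. Gper1 is a G protein-coupled oestrogen receptor, Cited1 a transcriptional co-regulator, and Dcx a microtubule-binding protein best known in migrating neurons. RefSeq promoter windows on GRCm38.p6, from 250 bases before to 50 after the start, were matched for 7 of the 8 genes and gave 11 windows. They were searched on both strands for the E-box CANNTG, the motif that myogenic bHLH factors bind, and for TATAAA, the core of the TATA box, and the 2 motifs cannot overlap. CANNTG occurred in windows of 2 of the 7 genes, Gper1 and Cited1, against 72.3% of all 32851 windows of this length, and TATAAA in windows of 4 of the 7, Postn, Gper1, Cited1 and Dcx, against 13.6%. Counted by window, CANNTG occurred in 4 of the 11 and TATAAA in 6 of the 11. Windows of 1 gene overlap or lie close together, so genes are given first. A gene with several windows has more chances of a match than 1 window. The 4 windows below show the genes with and without these letters, 5′ to 3′ along the gene with the matches in capitals. They are Postn at chr3:54360857-54361156 (plus strand), Col1a2 at chr6:4505368-4505667 (plus strand), Gper1 at chr5:139422929-139423228 (plus strand) and Cited1 at chrX:102252132-102252431 (minus strand).
Postn: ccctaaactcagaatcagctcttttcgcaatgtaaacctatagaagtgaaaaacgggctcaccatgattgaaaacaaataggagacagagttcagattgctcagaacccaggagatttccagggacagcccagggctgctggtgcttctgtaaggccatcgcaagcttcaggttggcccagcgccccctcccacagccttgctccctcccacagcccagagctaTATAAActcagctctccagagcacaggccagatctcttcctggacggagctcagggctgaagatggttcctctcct
Col1a2: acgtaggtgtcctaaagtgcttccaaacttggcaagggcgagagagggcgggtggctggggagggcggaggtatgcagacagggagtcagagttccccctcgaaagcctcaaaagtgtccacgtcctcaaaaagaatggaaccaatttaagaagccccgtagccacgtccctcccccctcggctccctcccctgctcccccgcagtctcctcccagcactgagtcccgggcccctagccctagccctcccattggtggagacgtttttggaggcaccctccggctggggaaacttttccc
Gper1: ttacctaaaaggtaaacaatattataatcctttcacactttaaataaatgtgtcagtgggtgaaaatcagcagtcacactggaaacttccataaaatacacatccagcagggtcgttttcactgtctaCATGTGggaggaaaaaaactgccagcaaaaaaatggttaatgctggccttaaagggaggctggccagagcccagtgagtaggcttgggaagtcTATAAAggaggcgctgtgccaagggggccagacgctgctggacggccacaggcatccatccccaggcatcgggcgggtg
Cited1: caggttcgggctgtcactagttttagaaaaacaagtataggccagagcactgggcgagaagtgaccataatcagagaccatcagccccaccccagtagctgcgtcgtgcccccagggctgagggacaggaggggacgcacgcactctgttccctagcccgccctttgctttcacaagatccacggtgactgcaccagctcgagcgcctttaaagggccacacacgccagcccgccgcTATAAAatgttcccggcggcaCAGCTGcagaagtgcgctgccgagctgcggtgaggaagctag
In the Postn window TATAAA began 26 bases before the annotated start and in the Gper1 window 29 bases before it, whereas the Col1a2 window held neither motif. A match is a description of the letters, and the 3′ tags counted here do not show which start a transcript used.

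The B10 library held 49191944 UMIs over 9931 barcodes, the mdx library 67156373 over 7173, the DBA library 43542853 over 3539 and the D2-mdx library 75482888 over 6782. Dmd, the gene mutated in the dystrophic strains, was at 378 CPM (UMI counts per 1000000 UMIs, summed over the cells of a class) in the chosen cells of B10 and 381 in those of DBA, while the chosen cells of mdx stood at 105 and those of D2-mdx at 94.4. Most chosen cells of B10 and DBA, but a minority in mdx and D2-mdx, carried pericyte transcripts, as described below. The chosen cells of the 4 libraries are therefore unlike in kind. In the other satellite cells Dmd was at 326 and 293 CPM in B10 and DBA and at 157 and 129 in mdx and D2-mdx, so the lower libraries were those labelled dystrophic. Between 5 and 16 barcodes were shared by each pair of libraries, and 1 of them was a chosen cell in both mdx and D2-mdx.

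Chosen cells made up a larger share of satellite cells in the dystrophic than in the wild-type libraries. Postn and Col1a2 of the rule are among the genes the study names for a cluster it found enriched in these dystrophic strains. A larger dystrophic share was thus favoured by the choice of genes, here and in the shares below, and is a description only. In B10 they were 29 of 4556 satellite cells (0.637%, exact 95% interval 0.427 to 0.913), and in DBA 106 of 2773 (3.82%, 3.14 to 4.60). They were 1070 of 4369 in mdx (24.5%, 23.2 to 25.8) and 469 of 3472 in D2-mdx (13.5%, 12.4 to 14.7). The exclusion step removed 5 of 34, 311 of 1381, 22 of 128 and 234 of 703 cells in B10, mdx, DBA and D2-mdx. In mdx and D2-mdx most of these carried Sox10, a glial factor (128 and 84 cells), Myog, the differentiation factor (94 and 76), or Top2a, which marks dividing cells (91 and 75). Satellite cells, chosen ones included, were shallower in the libraries with the larger shares, with medians of 6708 UMIs per cell in mdx and 6154.5 in D2-mdx against 8465 in B10 and 10300 in DBA, although these libraries held more UMIs in all.

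**Figure D1:**
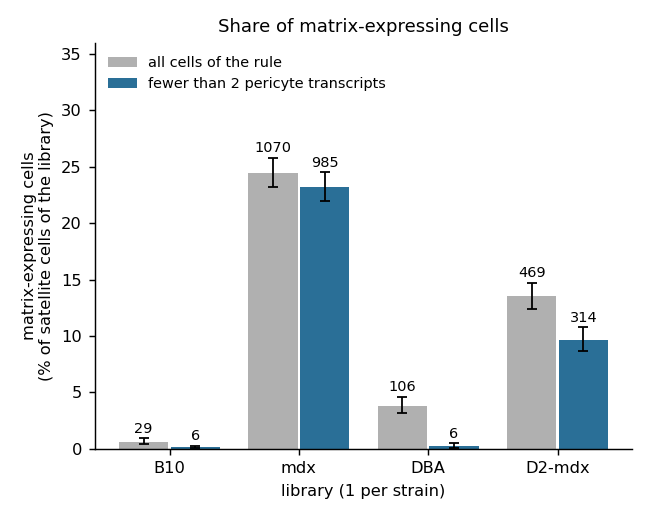
Chosen cells as a percent of the satellite cells of each library, with exact 95% intervals for counting error and the number of cells above each bar. Grey bars count every cell of the rule and blue bars count only cells with fewer than 2 pericyte transcripts, which leaves 6 cells in B10 and 6 in DBA.

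In the wild-type libraries the chosen cells went against the name satellite cell. Pericytes, the mural cells of capillaries, express Kcnj8 and Abcc9 (subunits of a potassium channel), Pdgfrb (a growth factor receptor), Colec11 and Higd1b, and UMIs of 2 or more of these 5 transcripts were found in 23 of 29 chosen cells in B10 (79.3%) and 100 of 106 in DBA (94.3%). The same count was 85 of 1070 in mdx (7.94%) and 155 of 469 in D2-mdx (33.0%). In the other satellite cells it was 0.464%, 1.15%, 0.862% and 2.46% in B10, mdx, DBA and D2-mdx. Chosen cells with these transcripts had a median of 1 to 2 UMIs of Pax7 and Myf5 together, against 12 in the other satellite cells of B10 and DBA and 6 in those of mdx and D2-mdx. Chosen cells without them had medians of 19.5 (B10, 6 cells), 9 (mdx), 18 (DBA, 6 cells) and 8 (D2-mdx).

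Cells that carried 2 or more pericyte transcripts but no Pax7 or Myf5 UMI numbered 74, 606, 415 and 947 in B10, mdx, DBA and D2-mdx. Of these, 94.6%, 79.7%, 97.1% and 80.7% held 3 or more rule genes, so the rule genes were common in pericytes of all 4 libraries. Among chosen cells, Scrublet doublet scores in the top share expected from the loading fell on 38.8% of those with pericyte transcripts and 6.29% of those without in mdx, and on 40.0% and 4.14% in D2-mdx. The share in the other satellite cells was 3.88% and 2.23%. In B10 and DBA such scores fell on 8.70% and 27% of chosen cells with pericyte transcripts and on 0% of those without. The other satellite cells of these 2 libraries were at 3.93% and 2.21%. The part of free RNA or of droplets with more than 1 cell in these counts was not tested.

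**Figure D2:**
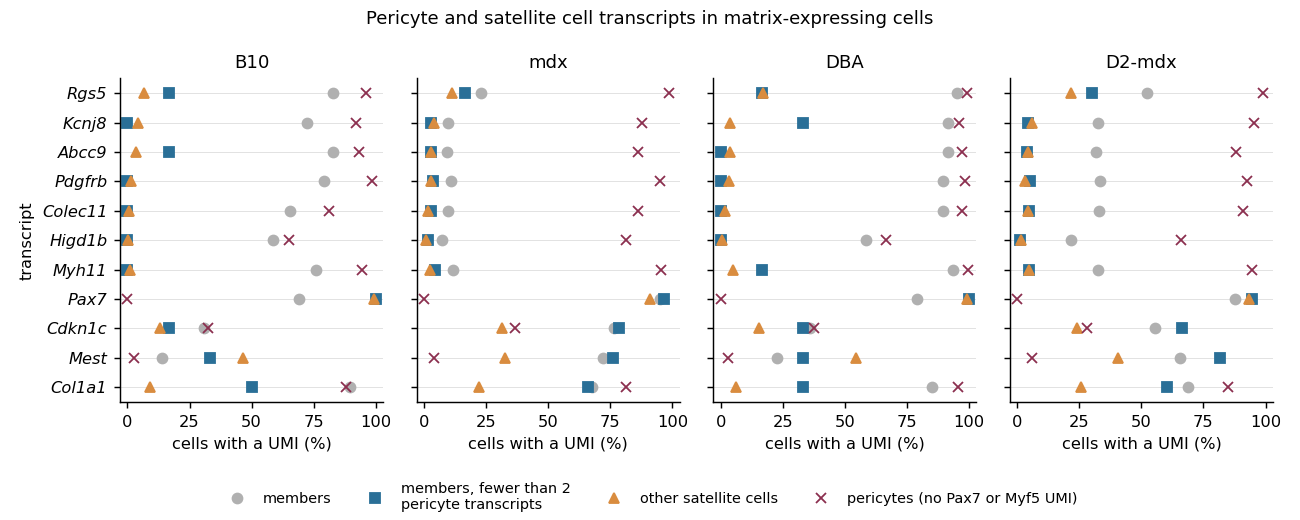
Percent of cells with a UMI of each transcript in the 4 libraries, for chosen cells (members), chosen cells with fewer than 2 pericyte transcripts, other satellite cells, and pericytes without Pax7 or Myf5. In B10 and DBA the grey circles lie near the crosses for Rgs5 to Myh11, and in mdx the blue squares lie near the triangles for these genes and to their right for Cdkn1c, Mest and Col1a1.

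With cells of 2 or more pericyte transcripts left out, a choice made after their levels were seen, 6 of 4512 satellite cells were chosen in B10 (0.133%, 0.0488 to 0.289) and 6 of 2650 in DBA (0.226%, 0.0831 to 0.492). The dystrophic libraries kept 985 of 4246 in mdx (23.2%, 21.9 to 24.5) and 314 of 3243 in D2-mdx (9.68%, 8.69 to 10.8). All further comparisons use these 985 and 314 cells, called matrix-expressing cells, and 3261 and 2929 other satellite cells of the same libraries, except where every chosen cell is named. The 12 wild-type cells are too few for a profile. The whole list of 7 pericyte markers summed to 36.7 CPM in the matrix-expressing cells of mdx and 41.2 in the others, and to 65.5 and 62.5 in D2-mdx, with Rgs5 the most abundant gene and no marker at 0 in either library. Because 5 of these 7 markers decided which cells were left out, low sums in both groups follow largely from that choice.

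The rule required a UMI of Pax7 or Myf5, and the levels of both were somewhat lower in the matrix-expressing than in the other satellite cells. Pax7 was at 408 CPM in the matrix-expressing cells and 522 in the others of mdx, and at 402 and 560 in D2-mdx. Myf5 was at 426 and 503 in mdx and at 332 and 415 in D2-mdx. Vcam1, whose protein was used in the sort, was at 632 against 622 CPM in mdx and 679 against 623 in D2-mdx. The ratios of Pax7 and Myf5 were 0.781 and 0.847 in mdx and 0.718 and 0.798 in D2-mdx, and some other genes of resting satellite cells, described further on, were lower by more.

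Among the rule genes, Col1a2 was the most abundant and the most widespread. It had a UMI in 99.1% of matrix-expressing cells and 57.0% of the others in mdx, and in 98.7% and 49.2% in D2-mdx, but in only 5.93% and 9.83% of the other satellite cells of B10 and DBA. White blood cells, which should lack it, had a UMI in 12.7% of 71 cells in mdx and 19.1% of 94 in D2-mdx at median depths of 6912 and 9409 UMIs, against 5844 and 5809 UMIs in the other satellite cells. After each cell was thinned to 3000 UMIs the Col1a2 shares were 87.9%, 41.6% and 8.45% in matrix-expressing, other satellite and white blood cells of mdx, and 77.1%, 32.4% and 7.45% in D2-mdx. Matrix-expressing cells were deeper than the others, with medians of 11314 UMIs in mdx and 11853 in D2-mdx, which a rule on detected genes favours.

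Each rule gene was also read in cells chosen by 3 or more of the other 7 genes, with the gene itself left out of the choice. Postn had a UMI in 57.6% (54.0 to 61.0) of 787 such cells and in 11.2% (10.2 to 12.3) of the rest in mdx, and in 51.0% (44.0 to 57.9) of 210 cells and 8.31% (7.35 to 9.35) of the rest in D2-mdx. Gpc3 was found in 54.1% and 15.1% in mdx and in 33.9% and 6.15% in D2-mdx. Gper1 was found in 22.8% and 3.04% in mdx and in 30.1% and 4.42% in D2-mdx. All 8 genes were more frequent in the chosen than in the remaining cells of both libraries, with Cited1 the rarest (12.5% and 1.13% in mdx). With the cells thinned to 3000 UMIs before the choice all 8 genes were again more frequent in the chosen cells of mdx, with intervals apart and Postn at 45.2% and 10.3%. In D2-mdx Postn was then at 28.9% (15.4 to 45.9) and 5.74% (4.96 to 6.60), but the intervals of 6 of the 8 genes, all but Postn and Col1a2, overlapped at this depth, with Cited1 in 1 of 75 chosen cells.

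Against the other satellite cells, matrix-expressing cells had higher levels of the cell cycle inhibitor Cdkn1c, some other imprinted genes and part of the matrix genes, and lower levels of most immediate-early genes and of part of the genes of resting satellite cells. In mdx 161 of 8163 genes with at least 10 CPM in either group were past 2-fold higher (1.97%) and 205 past 2-fold lower (2.51%). In D2-mdx 195 of 8221 were higher (2.37%) and 238 lower (2.9%). The rule chose cells by their RNA, so these ratios describe the chosen cells and were not tested. All 8 rule genes, raised by the choice itself, are counted in every number of higher genes in this paragraph. They are also among those higher in both libraries. Among 7854 genes measured in both libraries, 96 were higher in both, which is 69.1% of the 139 in mdx and 67.6% of the 142 in D2-mdx, and 133 were lower in both, 71.1% of 187 and 66.2% of 201. For every cell of the rule the counts were 253 higher (3.06%) and 173 lower (2.09%) in mdx and 487 higher (5.75%) and 178 lower (2.1%) in D2-mdx, and the 12 genes ranked highest in both libraries were then led by Colec11, Ednra and Ebf2. Of these Colec11 was at 250 against 15.2 CPM in D2-mdx and 49.6 against 3.76 in mdx.

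Cdkn1c (chr7:143458339-143461050, minus strand, GRCm38), which encodes the cyclin-dependent kinase inhibitor p57, was the most abundant of the 12 highest genes. It was at 1113 CPM in the matrix-expressing and 140 in the other satellite cells of mdx (7.93-fold, 7.62 to 8.25), and at 629 and 107 in D2-mdx (5.86-fold, 5.52 to 6.22). It was at 19.7 and 19.8 CPM in the other satellite cells of B10 and DBA. Its share of cells with a UMI was 78.5% and 31.5% in mdx and 66.2% and 24.0% in D2-mdx, and 61.7% and 19.6%, and 46.5% and 13.8%, after thinning. In chosen cells with 2 or more pericyte transcripts Cdkn1c was lower than in those without, at 160 CPM in mdx and 96.6 in D2-mdx. Endothelial cells, which are known to express it, were at 1019 CPM in mdx (234 cells) and 399 in D2-mdx (82 cells), while the 7 endothelial markers summed to 20.2 CPM in the matrix-expressing cells of mdx against 27.7 in the others, and to 16.2 against 27.8 in D2-mdx.

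The other 11 of the highest genes were less abundant. R3hdml, ranked first, was at 13.5 against 1.39 CPM in mdx (9.69-fold, 6.53 to 14.8) and 10.9 against 0.759 in D2-mdx (14.4-fold, 7.79 to 28.0). Kif26b, a kinesin family member, was 6.34-fold and 6.31-fold higher in mdx and D2-mdx, and Ptn (pleiotrophin, a heparin-binding growth factor) was 4.44-fold and 5.95-fold higher. Nrxn3 (a neurexin) was 4.17-fold and 4.44-fold, Islr2 5.79-fold and 5.26-fold, and Pkp1 (plakophilin 1) 4.19-fold and 5.09-fold higher. Btbd17, Ctxn1, Rundc3a, Nt5dc2 and Enho lay between 3.38-fold and 5.87-fold in the 2 libraries. These genes were ranked by the smaller of their 2 log2 ratios, so their direction in both libraries is a property of the choice.

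Of the imprinted genes, in which only 1 parental allele is expressed and many of which act on growth, 6 of 15 measured were past 2-fold higher in mdx and 6 of 15 in D2-mdx, Cdkn1c among them in both, with none past 2-fold lower, though Nap1l5, an imprinted gene outside the list, was among the lowest genes described further on. The median log2 ratio of the list was 0.62 in mdx and 0.27 in D2-mdx, beside 0.05 and 0.03 over all genes. Mest (chr6:30723547-30748465, plus strand) was at 601 against 150 CPM in mdx (4.01-fold, 3.85 to 4.19) and 569 against 169 in D2-mdx (3.37-fold, 3.19 to 3.56). H19, a noncoding RNA at chr7:142575529-142578143 on the chromosome of Cdkn1c, was at 194 against 58.3 in mdx and 104 against 28.5 in D2-mdx. Plagl1, a zinc finger factor, was 2.67-fold and 3.45-fold higher, and Peg10, a retrotransposon-derived gene, 2.59-fold and 2.53-fold. Igf2, a growth factor, was past 2-fold higher in D2-mdx (2.27-fold, 2.08 to 2.47) and at 1.73-fold in mdx (1.65 to 1.81), and Slc38a4, an amino acid transporter, was past 2-fold in mdx alone, with a D2-mdx interval of 0.752 to 2.87 that includes the mdx value of 2.15. Igfbp3 and Igfbp6, which bind insulin-like growth factors, were 4.17-fold and 2.27-fold higher in mdx and 2.55-fold and 2.51-fold in D2-mdx, and the IGF list had 2 of 10 and 3 of 9 genes higher and none lower.

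The 4 matrix lists, in which no rule gene was counted, each had a median log2 ratio above 0 in both libraries, with a minority of genes past 2-fold. Over all genes 1.97% were past 2-fold higher and 2.51% lower in mdx, and 2.37% and 2.9% in D2-mdx. The counts of this and the later lists are to be read beside these shares. Of the collagens 2 of 14 were past 2-fold higher and 1 (Col19a1) lower in mdx, and 2 of 16 higher and none lower in D2-mdx, with median log2 ratios of 0.56 and 0.42. Col1a1, the partner chain of Col1a2, was at 281 against 88.7 CPM in mdx (3.17-fold) and 310 against 86.2 in D2-mdx (3.60-fold), where 18.8% of its UMIs came from 1 cell. The fibrillar chain Col3a1 differed less, with 1270 against 1055 CPM in mdx (1.20-fold), as did Col4a1 of the basement membrane (1.00-fold in mdx, 0.924-fold in D2-mdx). Col11a1 was past 2-fold in D2-mdx only with over 50% of its UMIs in 1 cell.

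Of the genes that fold and process collagen, 1 of 16 was past 2-fold higher in mdx and 3 of 17 in D2-mdx, with none lower and median log2 ratios of 0.40 and 0.33. Adamts2, which removes the N-terminal propeptide of procollagen, was 3.35-fold (2.86 to 3.94) and 3.33-fold (2.69 to 4.12) higher, and Pcolce, an enhancer of C-terminal processing, 1.79-fold and 2.64-fold. Serpinh1, the collagen chaperone, was 1.82-fold and 1.71-fold higher, short of the 2-fold mark. Among proteases and inhibitors, Adam19, a membrane metalloprotease, was 2.69-fold and 2.12-fold higher. It was the only 1 of 12 genes past 2-fold in mdx, 3 of 13 passed in D2-mdx, and none was lower in either library, with median log2 ratios of 0.29 and 0.63.

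Of the matrix glycoproteins and proteoglycans, 6 of 27 were past 2-fold higher and 2 lower in mdx, and 8 of 30 higher and 2 lower in D2-mdx, with median log2 ratios of 0.26 and 0.30. Islr, a secreted leucine-rich repeat protein, was at 426 against 106 CPM in mdx (4.03-fold, 3.84 to 4.24) and 376 against 135 in D2-mdx (2.79-fold, 2.61 to 2.98). Lamb1, a laminin chain, was 2.87-fold and 3.90-fold higher, Vcan (versican) 3.42-fold and 2.37-fold, and Fn1 (fibronectin) 2.58-fold and 3.61-fold, the last with 24.1% of the D2-mdx UMIs in 1 cell. Spp1 (osteopontin) was 3.08-fold higher in mdx and at 0.615-fold in D2-mdx, with 19.5% to 35.3% of its UMIs in 1 cell in each group of cells. Prelp, a proteoglycan of the basement membrane, was lower, at 69.4 against 232 CPM in mdx and was 2.95-fold lower in D2-mdx. Sparc, the most abundant of these named, was at 2930 against 2445 CPM in mdx, a ratio of 1.20.

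Of the TGF-beta and BMP genes 1 of 19 was past 2-fold higher and 3 lower in mdx, and none higher and 4 lower of 19 in D2-mdx, with median log2 ratios of -0.22 and -0.39. Tgfb1, a ligand, was at 47.2 against 20.1 CPM in mdx (2.35-fold) and 47.7 against 26.3 in D2-mdx (1.81-fold). Bmp4, also a ligand, was lower, at 58.1 against 158 in mdx and 125 against 302 in D2-mdx. Tgfbr3, the co-receptor betaglycan, was at 87.6 against 187 in mdx and 82.0 against 187 in D2-mdx.

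**Figure D3:**
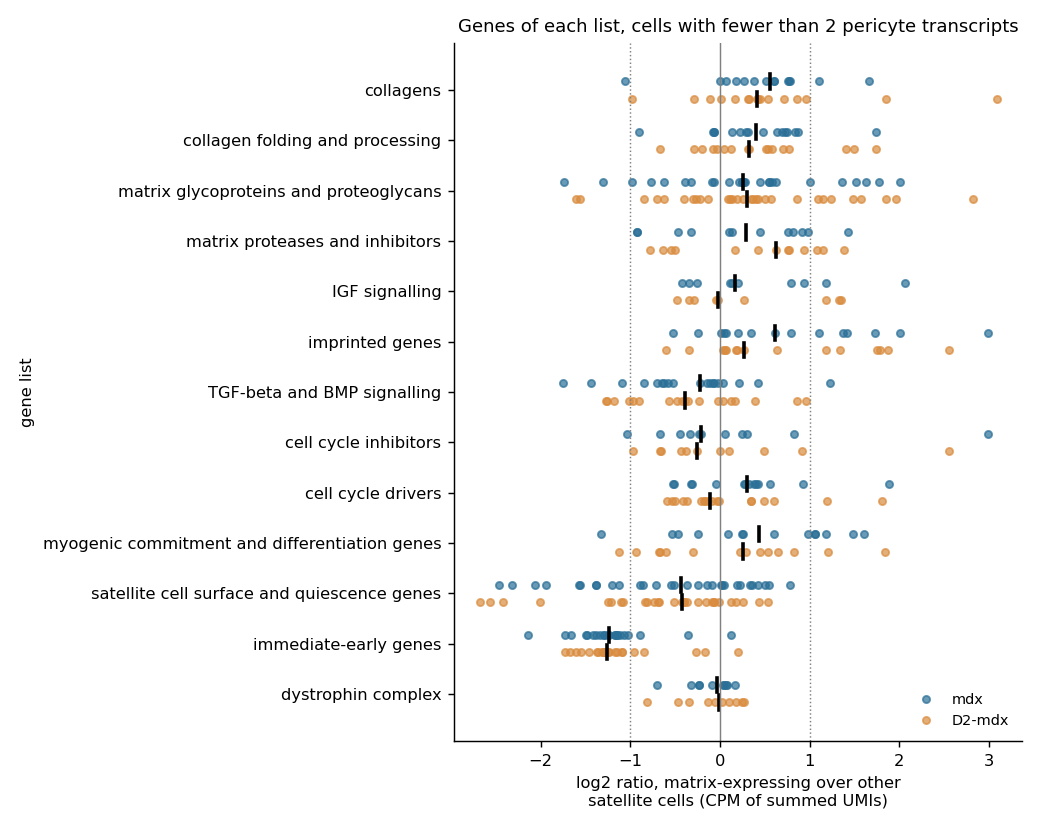
Log2 ratio of each gene with at least 10 CPM in either group, matrix-expressing over other satellite cells, for mdx (blue) and D2-mdx (orange), with the list median as a black bar and 2-fold as dotted lines. Imprinted genes and collagens lie mostly right of 0 and 19 of 22 immediate-early genes in mdx lie left of the lower dotted line.

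Immediate-early genes, which are induced within minutes by signals and by tissue dissociation, were lower almost throughout. In mdx 19 of 22 were past 2-fold lower and none higher, and in D2-mdx 17 of 22 were lower and none higher, with median log2 ratios of -1.24 and -1.27. Jun was at 3746 against 8905 CPM in mdx and 3700 against 9237 in D2-mdx. Btg2, an antiproliferative gene induced by stress, was at 539 against 1705 in mdx and 405 against 1232 in D2-mdx. Ier5 had the highest ratio of the list in both libraries (log2 0.12 and 0.20). The part of cell dissociation in this difference was not tested.

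Of the genes of the satellite cell surface and of quiescence, 19 had a log2 ratio below 0 and 11 above 0 in mdx. In D2-mdx 24 were below 0 and 5 above 0. In mdx 10 of 30 were past 2-fold lower and none higher, and in D2-mdx 8 of 29 lower and none higher. Nppc, a natriuretic peptide, was at 104 against 521 CPM in mdx (5.01-fold lower) and 172 against 920.2 in D2-mdx (5.37-fold lower). Chrdl2, a BMP antagonist, was 4.19-fold lower in mdx and 5.90-fold lower in D2-mdx. The surface genes Cd34 and Sdc4 (syndecan 4) were 2.61-fold and 2.94-fold lower in mdx and 2.15-fold and 2.32-fold in D2-mdx. Notch3 was at ratios of 1.03 and 0.953 and Cdh15, M-cadherin, at 1.71 and 1.45, the highest of the list. Of the 10 genes the study scored as satellite cell genes, a list it adapted from published work and which overlaps the list above, 8 of 10 were past 2-fold lower in mdx and 6 of 9 in D2-mdx.

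The lowest 12 genes included 3 haemoglobin genes, Hba-a1, Hbb-bs and Hbb-bt, whose level in the other satellite cells of mdx came mostly from 1 cell (93.2% of Hbb-bs UMIs). Of the remaining 9, Nap1l5, an imprinted retrogene, was at 2.52 against 28.7 CPM in mdx (11.4-fold lower) and 3.46 against 35.1 in D2-mdx (10.1-fold lower). Hsd11b1, which regenerates active glucocorticoid, was 7.73-fold and 5.70-fold lower, and Clmn, calmin, 6.56-fold and 5.01-fold. Tnxb, a tenascin, was 7.54-fold and 5.15-fold lower, but over every cell of the rule its log2 ratio was -1.45 in mdx and 0.26 in D2-mdx. Lncpint and 1200007C13Rik, both noncoding, and Arl4d, a small GTPase, were between 5.01-fold and 8.88-fold lower.

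Myogenic commitment genes divided in direction. In mdx 5 of 14 were past 2-fold higher (Ckb, Myl1, Myl4, Ttn and Tpm2, genes of the sarcomere or of muscle energy supply) and 1 lower, and in D2-mdx 2 of 14 were higher and 1 lower. Ttn, titin, was 3.04-fold and 3.59-fold higher. Myod1, the determination factor, was lower, at 49.9 against 125 CPM in mdx (2.51-fold) and 74.6 against 143 in D2-mdx (1.92-fold). Of the cell cycle inhibitors other than Cdkn1c none of 10 was past 2-fold higher in either library and 1, Gas1, was lower in mdx (log2 -1.04), with Cdkn1a (p21) at ratios of 0.865 and 1.07 and Cdkn1b (p27) at 0.852 and 0.738. Of the cell cycle drivers, 1 of 14 was past 2-fold higher in mdx and 2 of 18 in D2-mdx, in cells from which the rule removed every Top2a UMI. Over all genes 1.97% were higher in mdx and 2.37% in D2-mdx, so such small counts in short lists say little. In the dystrophin complex none of 10 genes was past 2-fold in either direction, with Dmd at ratios of 0.616 and 0.568. Of the interferon-induced genes none of 7 passed in mdx, and 1 of 4, Ifi27l2a, was higher in D2-mdx (40.5 against 9.26 CPM).

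Of 17 measured mesenchymal transcription factors 1, Prrx2, was past 2-fold higher in mdx and none in D2-mdx, where 1 was lower. Beside the shares over all genes these counts say little as well. The genes the study scored as associated with dystrophy had 11 of 62 past 2-fold higher in mdx and 13 of 62 in D2-mdx with none lower. They come from a published signature of patients' muscle, and the rule genes Col1a2, Col6a3 and Gpc3 are among those counted as higher. Outside the rule Lgals3, galectin 3, was 3.10-fold and 2.29-fold higher and Maged2 3.06-fold and 2.77-fold. S100a11, a calcium-binding protein that the study names for these cells but that is not on this list, was 2.15-fold and 2.10-fold higher.

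The markers of other cells differed in direction between the matrix-expressing and the other satellite cells of mdx, and those of smooth muscle, myofibres and, slightly, glia had higher sums. Fibro-adipogenic markers summed to 637 against 930 CPM, with Gsn the most abundant and all 12 detected, white blood cell markers to 33.0 against 40.4, glial markers to 49.7 against 46.9, with Gfra3 at 0, and myofibre transcripts to 106 against 80.1. Smooth muscle markers summed to 610.1 against 423, with Acta2 at 387 against 265, and their part in the ratios of other genes was not tested. In D2-mdx fibro-adipogenic markers summed to 963 against 1128, white blood cell markers to 99.0 against 138, glial markers to 81.7 against 66.3, smooth muscle markers to 585 against 607 and myofibre transcripts to 195 against 255. Tenocyte markers summed to 965 against 1537 in mdx and 711 against 1183 in D2-mdx. Chodl made up most of each sum (log2 ratios of -0.67 and -0.91), so the sums say little about the other tenocyte genes. In D2-mdx Thbs4, Fmod and Tnmd were past 2-fold higher, with over 50% of their UMIs in 1 cell each. Of the 195 genes past 2-fold higher in D2-mdx 11 had over 50% of their UMIs in 1 cell, among them Mgp, Lum and Aspn, against none of the 161 in mdx.

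Levels followed the number of rule genes a cell held. In mdx, Cdkn1c was at 67.3, 121 and 243 CPM in cells with 0, 1 and 2 rule genes, just outside the rule at 2, and at 711, 1047 and 1611 in cells with 3, 4 and 5 or more. In D2-mdx the values were 51.8, 87.5, 284, 455, 678 and 1084. Mest went from 72.2 to 786 in mdx and from 117 to 767 in D2-mdx between 0 and 5 or more rule genes, each step higher than the one before. Nppc went the other way, from 711 to 46.7 in mdx, and in D2-mdx from 1087 at 0 to 116 at 4 and 126 at 5 or more. Vcam1 stayed between 587 and 664 in mdx.

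**Figure D4:**
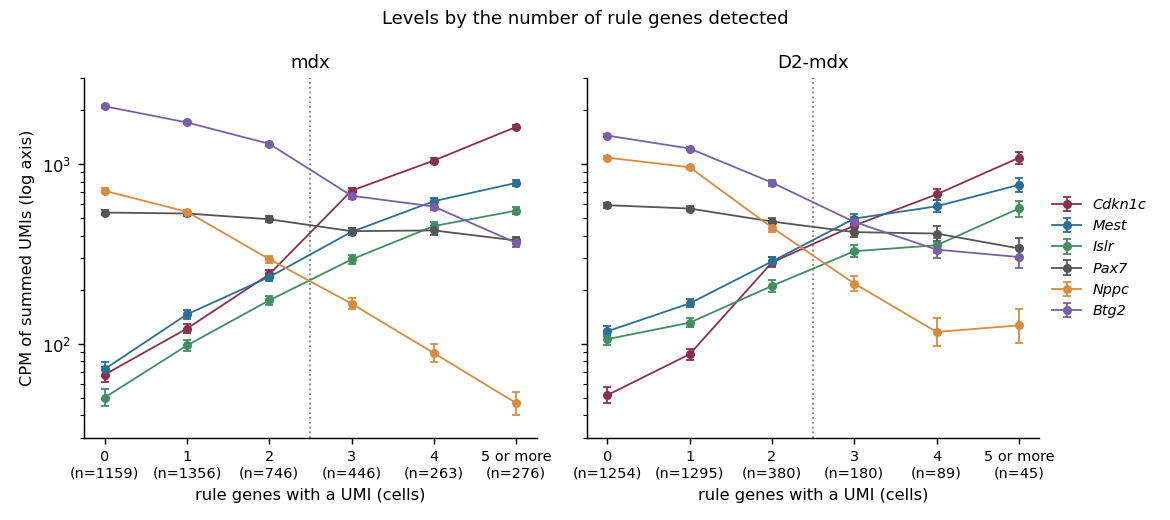
Summed CPM (log axis) by the number of rule genes with a UMI, in satellite cells with fewer than 2 pericyte transcripts, with exact 95% intervals for counting error and the number of cells under each point; the dotted line is the border of the rule. Cdkn1c, Mest and Islr lie higher, and Nppc and Btg2 lower, at 3 or more rule genes than at 0, and Pax7 changes least of those drawn.

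Deeper cells can show more rule genes, so the count was repeated with every cell thinned to 3000 UMIs. The Pax7 or Myf5 step and the exclusion step were then read on thinned counts too, and levels on all UMIs. Cells that lost their excluded transcripts by thinning could therefore enter, and their part was not tested. Cdkn1c was then at 84.3, 299, 736 and 1310 CPM with 0, 1, 2 and 3 rule genes in mdx and at 84.2, 204, 411 and 611 in D2-mdx. Nppc was at 642, 393, 198 and 92.8 in mdx and at 961, 815, 318 and 245 in D2-mdx. The order from 0 to 3 was the same for both genes in both libraries in this wider set of cells. At 4 or more, D2-mdx held 12 thinned cells, too few to read.

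Within the matrix-expressing cells the levels were uneven. Cdkn1c had a median of 3.99 UMIs per 10000 of the cell in mdx and 1.78 in D2-mdx, no UMI in 21.5% and 33.8% of cells, and 48.3% and 53.3% of its UMIs in the top 10% of cells. Its highest 10% of cells began at 29.8 UMIs per 10000 in mdx and 16.7 in D2-mdx. Mest was more even, with medians of 3.72 and 3.80 and 40.5% and 36.5% of its UMIs in the top 10%. In 247 cells left out by the rule that held a Myog UMI, none of the other 5 excluded transcripts and fewer than 2 pericyte transcripts, the median of Cdkn1c was 1.95 in mdx but the 90th percentile was 49.5, above that of the matrix-expressing cells.

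**Figure D5:**
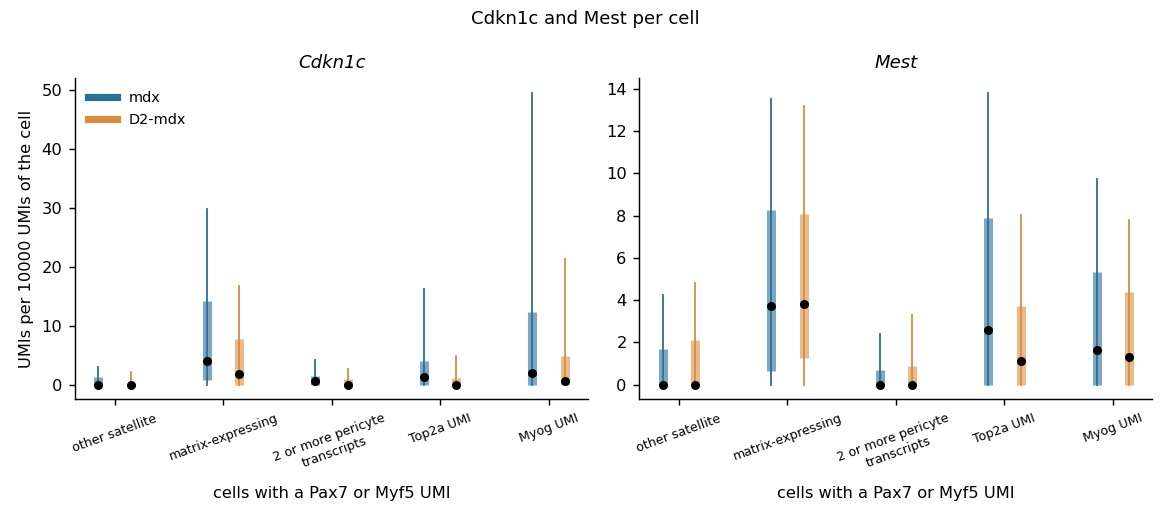
UMIs of Cdkn1c and Mest per 10000 UMIs of the cell in mdx (blue) and D2-mdx (orange): dots are medians, thick bars the 25th to 75th and thin lines the 10th to 90th percentiles over cells of 1 library, where the Top2a and Myog groups have fewer than 2 pericyte transcripts and no UMI of Cdh5, Sox10, Ptprc or Pdgfra, and the Myog group no Top2a UMI. The median of Cdkn1c is 3.99 in matrix-expressing mdx cells and 0 in other satellite cells.

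Cells with a Pax7 or Myf5 UMI were also clustered within each library without the rule, Pax7, Myf5 or excluded genes. In mdx 65.4% (62.3 to 68.4) of matrix-expressing cells fell in 1 cluster of 1203 cells led by Actc1, Cdkn1c, Arpp21 and Ttn, of which they were 53.5%, and 20.4% fell in a cluster of 744 cells led by Sox9, Lmod2 and Wee1. In D2-mdx 76.8% (71.7 to 81.3) fell in 1 cluster of 819 cells led by Cdkn1c, Igfbp3, Arpp21 and Neb, of which they were 29.4%. The mdx cluster of 1203 cells held Myog UMIs in 12.1% of its cells and the D2-mdx cluster of 819 in 20.4%. The largest clusters, of 1721 and 2010 cells, held them in 2.56% and 5.92%. Clusters led by genes of other cells reached similar shares, 12.05% in mdx (led by Slitrk3 and Foxd3) and 20% in D2-mdx (led by Ltf). Cells with a Myog UMI thus lay in the same clusters as most matrix-expressing cells, and in other clusters as well. Whether they were differentiating was not tested. Chosen cells with pericyte transcripts lay apart, with 92.9% in a cluster of 107 cells in mdx and 92.3% in a cluster of 219 cells in D2-mdx, both led by Kcnk3 and holding Myh11 among their first 8 genes.

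Cells outside the rule carried the rule genes as well. Counted here were cells with a Pax7 or Myf5 UMI, fewer than 2 pericyte transcripts and no UMI of Cdh5, Sox10, Ptprc or Pdgfra, so these counts are smaller than those of the exclusion step. Of such cells with a Top2a UMI, whether or not they held Myog, 44.6% of 166 in mdx and 18.6% of 274 in D2-mdx held 3 or more rule genes. Of those with a Myog and no Top2a UMI 25.9% of 247 and 11.6% of 327 did. In B10 and DBA none of 24 and 25 such cells with Top2a and none of 27 and 37 with Myog did, which at a limit of 3 counts allows shares of up to 12.5%, 12%, 11.1% and 8.11%. Among cells with no Pax7 or Myf5 UMI and fewer than 2 pericyte transcripts, glial cells with Sox10 held 3 or more rule genes in 59.2% of 289 in mdx and 69.6% of 168 in D2-mdx, while endothelial cells did in 2.56% and 8.54% and white blood cells in 2.82% and 4.26%. In the wild-type libraries, with few such cells, 4 of 19 glial and 2 of 13 endothelial cells in B10 and 4 of 14 and 3 of 10 in DBA held 3 or more.

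Between the 2 dystrophic libraries, 169 of 8200 genes were past 2-fold higher (2.06%) and 138 past 2-fold lower (1.68%) in D2-mdx than in mdx matrix-expressing cells. For every cell of the rule 407 of 8487 were higher (4.8%) and 117 lower (1.38%). Most of the largest differences were shared by other cells and by the wild-type strains: Gm10709, ranked first, was at 1092 against 1.26 CPM (log2 9.76), with a log2 ratio of 8.92 in the other satellite cells and 8.59 between those of DBA and B10. Tpm3-rs7 was likewise at log2 6.46, 6.35 and 6.43, and Rnaset2b, lower in D2-mdx, at -6.06, -6.47 and -6.70. Many such genes are pseudogenes or members of near-identical families, whose counts are uncertain. Of the genes past 2-fold, 93 higher and 85 lower were also past 2-fold in the same direction in the other satellite cells.

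In 27 of the 169 and 12 of the 138 genes the ratio in matrix-expressing cells differed by 2-fold or more from that in the other satellite cells. Of these, 12 and 9 were kept, a list made after the values were seen. They had at most 25% of their UMIs in 1 cell among the matrix-expressing cells of the library with the higher level. This limit was not applied to the other satellite cells. Aebp1, a secreted matrix protein, was at 64.2 CPM in D2-mdx and 7.55 in mdx matrix-expressing cells, and at 19.9 and 7.39 in the others. Ccne1 (cyclin E1) was at 20.5 and 5.45 in matrix-expressing cells and 5.87 and 3.20 in the others. Dcn, decorin, stood at 73.2 and 6.04 in the matrix-expressing and 70.2 and 28.5 in the other cells, with 54.0% of the latter mdx UMIs in 1 cell. Markers of other cells also differed between the matrix-expressing cells of the 2 libraries. Fibro-adipogenic markers, Dcn among them, summed to 963 CPM in D2-mdx against 637 in mdx with 4 of 5 measured past 2-fold higher. Tenocyte markers summed to 711 against 965, most of it Chodl (log2 -0.63), although 3 of 5 were past 2-fold higher. Myofibre transcripts summed to 195 against 106 with 5 of 6 higher, and white blood cell markers to 99.0 against 33.0 with both measured genes higher. Glial markers summed to 81.7 against 49.7 with 2 of 3 higher, pericyte markers to 65.5 against 36.7 with Rgs5, the only 1 measured, higher, and both measured erythrocyte transcripts were higher, whereas smooth muscle and endothelial markers had none higher. A D2-mdx cluster of 13 cells that had Thbs4, Tnmd, Kera and Comp among its leading genes held 3 of the matrix-expressing cells, and the part of these markers in the differences between the libraries was not tested. Pax3, a paired box factor, was lower in D2-mdx, at 3.20 against 11.5, with a log2 ratio of -0.14 in the others. Cdkn1c was at 629 in D2-mdx against 1113 in mdx, and Mest at 569 against 601.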

How the data were processed

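The authors aligned and counted 10X 3′ reads with Cell Ranger 3.0.1, per the labels, and deposited matrices of UMI counts per gene and barcode, 1 per strain, which were used as deposited. Per the study's methods the reads were aligned to mm10. Gene positions came from the GENCODE annotation of GRCm38 for 519 of 519 named genes, matched by Ensembl ID. The members, the gene lists and the comparisons were chosen with earlier results of these data known. Counts were summed over the cells of a class and library and given as CPM, per 1000000 UMIs, and ratios compare cells of 1 library except where D2-mdx is set against mdx, or DBA against B10, where strain and library cannot be told apart. With 1 library per strain there was no test; ratios carry exact binomial and shares exact Clopper-Pearson 95% intervals. A gene was measured at 10 CPM in either group and called past 2-fold. Named genes were the rule genes, Dmd, Cdkn1c and genes the study names, the 12 highest and lowest by the smaller of the mdx and D2-mdx log2 ratios, the 8 highest and lowest between D2-mdx and mdx, and the extremes of each list; some genes of the lists are counted but not reported singly here. The ranking was repeated in cells with fewer than 2 pericyte transcripts, a step added after the marker levels were seen, and that ranking leads the text.

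Droplets with more than 1 cell were scored with Scrublet in scanpy 1.11.5. Its automatic threshold marked 0 to 5 cells a library and so did not work, and the 3.80%, 5.34%, 2.70% and 4.84% of cells with the highest scores in B10, mdx, DBA and D2-mdx were left out as an alternative only. Cells were clustered with Leiden at resolution 0.5 on 30 principal components of 2000 variable genes. The steps for ratios were tested on simulated counts. Other alternatives were thinning to 3000 UMIs, 4 or more rule genes, a Pax7 UMI, at most 5% mitochondrial UMIs, no upper limit of genes, comparison cells with no rule gene, 50 CPM or no minimum, TMM library sizes (edgeR 4.0.16) and means of per-cell values.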

Additional observations from a re-analysis of the deposited data

How the results depend on the processing

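No paired analysis was possible because each strain had 1 library. With cells thinned to 3000 UMIs first the share of chosen cells was 0.113%, 10.5%, 0.946% and 3.80% (B10, mdx, DBA, D2-mdx), and 0.133%, 23.2%, 0.226% and 9.68% without cells of 2 or more pericyte transcripts. With 4 or more rule genes it was 13.8%, 3.03% and 6.45% (mdx, DBA, D2-mdx), with doublet scores removed 2.94% in DBA and 11.8% in D2-mdx, and with a Pax7 UMI 3.08% in DBA. For every cell of the rule, genes past 2-fold higher and lower in mdx numbered 462 and 298 against cells with no rule gene, 75 and 89 at 50 CPM and 1441 and 900 with no minimum, and 161 were higher without pericyte transcripts. In D2-mdx they numbered 147 and 68 at 50 CPM and 2040 and 734 with no minimum, and 195 were higher without pericyte transcripts. Between D2-mdx and mdx 139 genes were past 2-fold at 50 CPM and 307 without pericyte transcripts.

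Leaving out the cells with pericyte transcripts turned these log2 ratios among named genes past 2-fold: Ebf2 (-1.32), Adra2a (-1.56), Rgs5 (-0.28), Ifi203 (-0.073) and Procr (-0.11) in mdx, and Colec11 (-0.025), Ebf2 (-0.19), Adra2a (-0.60), Rgs5 (-0.15), Ramp1 (-0.020) and Rab6b (-1.41) in D2-mdx. Of named genes under 2-fold, Tnxb (0.26 to -2.37), Mrap2 (0.37 to -2.45) and Cxcl10 (0.026 to -1.93) became lower in D2-mdx. Against cells with no rule gene Hba-a1 (1.01) and Hbb-bt (0.39) turned in mdx and Rgs17 (-0.076) in D2-mdx. Mmp13 turned with thinning (2.94 in mdx, -1.93 in D2-mdx) and with 4 or more rule genes (0.98 in mdx). The cause was not tested beyond the cells left out. TMM scaling and per-cell means reversed no named ratio past 2-fold, and with TMM the median of the matrix proteases and inhibitors in mdx was 0.086, but the medians over all genes, 0.049 in mdx and 0.030 in D2-mdx, become -0.0050 and -0.029 with TMM, and the medians of the cell cycle drivers, the dystrophin complex and the fibro-adipogenic markers in D2-mdx change sign between scalings. The limits are 1 library per strain, deeper chosen than other cells, and few cells in B10 and DBA.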
